A study of Rattus norvegicus with 2 samples.

Results

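Semaphorins, ephrins, Slits and netrins, with their plexin, Eph, Robo and Unc5 receptors, were described in cultured neonatal rat ventricular cells. Members were taken by gene symbol, as every symbol of these 8 families in the deposited table, which gave 57 genes of 16846. Levels are given in RPM, the reads of a gene for every 1000000 counted on genes. Of the 57, 43 had a mean of 1 RPM or more, 6 had reads but a lower mean and 8 had 0 reads in both libraries. Over all gene symbols, 61.5% reached that mean and 31.0% had 0 reads in both. The cells came from ventricles at postnatal day 0, and the cells that did not attach to plastic within 2 h were plated as cardiomyocytes. The group called anti-miR was transduced for 7 days with adeno-associated virus of serotype AAV2/9 carrying short hairpin RNAs against miR-99/100 and let-7. For the control, the treatment label gives a virus without insert and the protocol gives mock-transduced cells. There was 1 library per group, of strand-specific poly(A) RNA, so no difference had a replicate check and each value compares these libraries only. The animals behind each culture and their strain are not given in the sources used here.

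Guidance ligands were first described as cues that steer growing axons, and the same families shape vessels, valves and the outflow tract of the heart. Semaphorins signal through plexins, in class 3 mostly with a neuropilin as co-receptor. Ephrins sit on the cell surface and bind Eph receptor tyrosine kinases on the neighbouring cell. Slits are secreted ligands of Robo receptors, and netrins are secreted ligands of Unc5 receptors and DCC.

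Some of the miRNAs that the hairpins are directed against are shown here. Their levels were not analysed, and if the control was mock-transduced, the virus itself also separates the groups. The mature sequences below are those of RefSeq for build GRCr8, with bases 2 to 8, the seed that pairs with target mRNAs, in capitals.
rno-let-7a-5p: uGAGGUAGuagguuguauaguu
rno-let-7c-5p: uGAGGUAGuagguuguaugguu
rno-miR-99b-5p: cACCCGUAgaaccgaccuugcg
rno-miR-100-5p: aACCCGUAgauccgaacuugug
The let-7 sequences share the seed GAGGUAG, and miR-99b and miR-100 share ACCCGUA. Whether the mRNAs of the guidance genes hold matches to these seeds was not analysed here.

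Depth on genes was 16031780 reads for the control and 14815846 for the other library. A count of 0 thus allows up to 3 reads, which came to 0.187 and 0.202 RPM. The cells had a stated purity of 90%, but the label of cardiomyocyte was matched only weakly. The 9 measured cardiomyocyte markers summed to 236 and 270 RPM, control first, far below the fibroblast sum that follows. Myh6, Myl3, Tnni3 and Ryr2 had no read in the control, and 23, 19, 5 and 20 reads in that order in the other library. Of the 5 markers with a mean of at least 1 RPM, 4 had higher values in the anti-miR library. The other, Myl2, was lower, at 30 and 5 reads. Tnnt2 and Actc1, the highest of the markers per length, had ratios of 1.09 and 1.15. The part of cardiomyocytes in the results below was not tested. By the same sum, 10 fibroblast markers reached 102430 and 103871 RPM and 10 macrophage or leukocyte markers 6786 and 7480 RPM. Most of the fibroblast sum came from Col1a1, Col3a1 and Col1a2, at 49138, 26226 and 20858 RPM in the control. Thy1, Pdgfra and Tcf21 had 288, 211 and 31.8 RPM there, beside 147 for Tnnt2. The gap between the sums thus depends on the genes listed. Without Lyz2, at 2937 and 3937 RPM, the macrophage or leukocyte sum was 3849 and 3542 RPM, a ratio of 0.920 (0.910 to 0.931). In such bulk samples, fewer cells of a type and less RNA per cell cannot be told apart.

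Levels were led by a netrin receptor, a plexin and a Slit. On the per-length scale, RPM per kilobase of transcript (RPKM), Unc5b stood at 150 for the control and 142 for the anti-miR library, Plxnb2 at 112 and 119, and Slit3 at 80.1 and 73.6. These genes held 55.6% and 56.0% of the summed per-length level of all 57 members, and their mean levels exceeded those of 95.9%, 94.5% and 91.4% of genes with a read. Sema4a followed at 44.0 and 49.6 RPKM. Sema3c, at 30.3 and 32.9, and Sema3f, at 30.3 and 26.1, came next; their 95% counting intervals overlapped in the control (29.1 to 31.6 and 28.8 to 31.8) and lay apart in the anti-miR library. Efnb2 was the highest ephrin, at 14.5 and 15.8, and the 10 highest members ended with Sema3d, Sema4c and Slit2. The order below them was close, and the intervals of many neighbours overlapped.

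**Figure D1:**
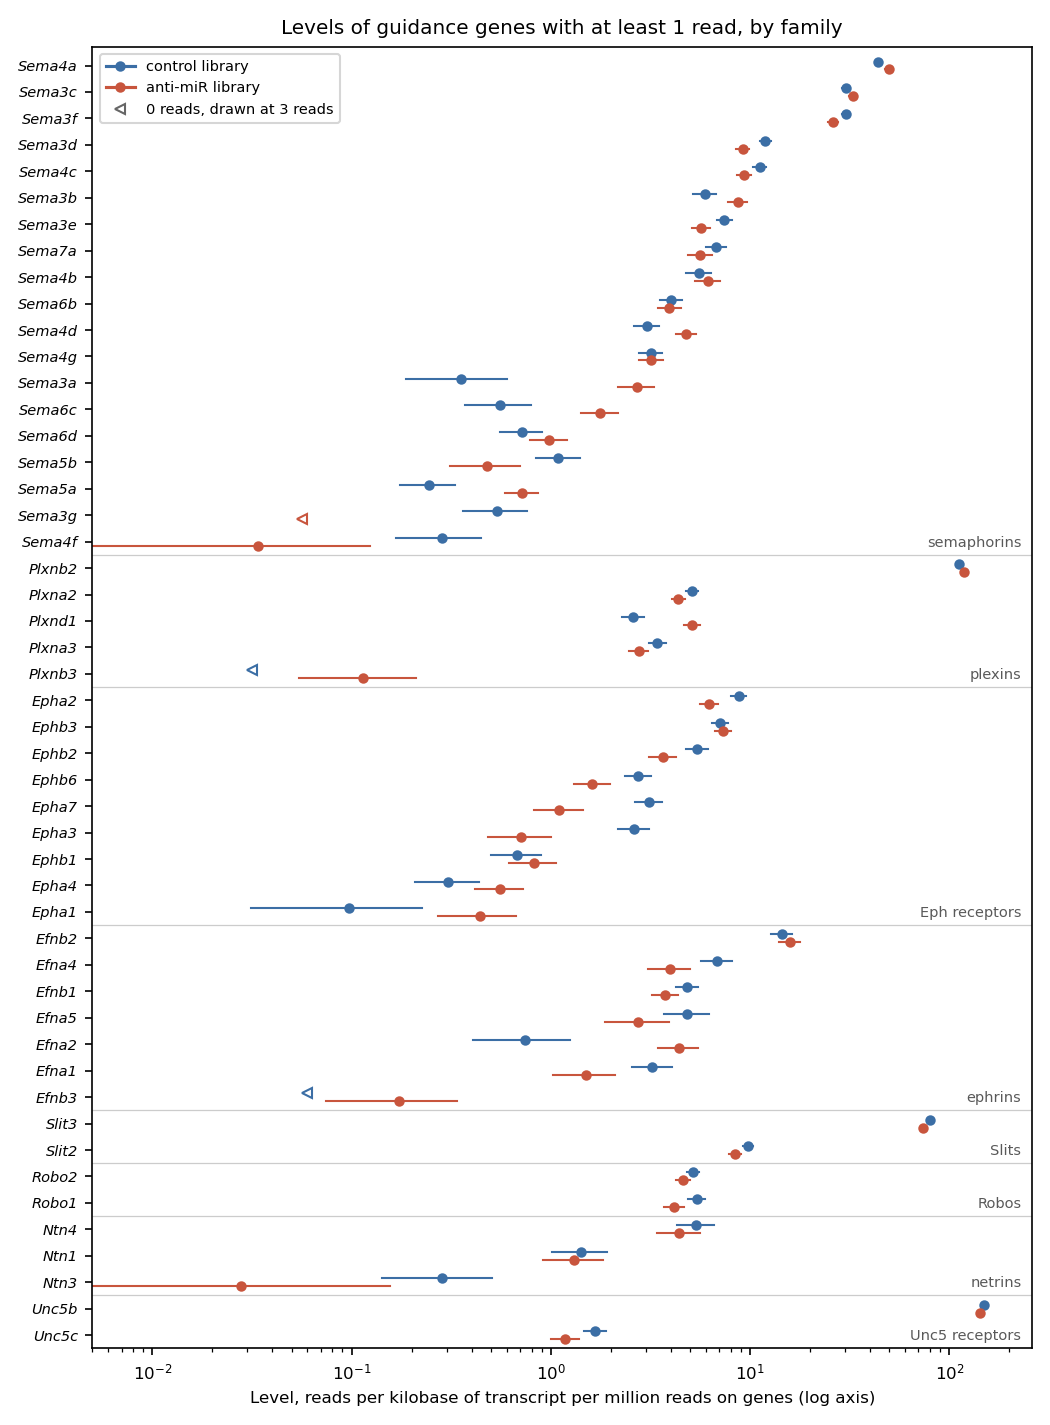
Level of each of the 49 guidance genes with a read, on a log axis in RPKM, in the control (blue) and the anti-miR library (red). Points are levels, lines are exact 95% Poisson counting intervals, and open triangles mark 0 reads, drawn at 3 reads. Unc5b, Plxnb2 and Slit3 stand above 70 in both libraries.

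Most guidance genes differed little between the libraries, and the large ratios sat among the scarce ones. A gene was called higher or lower when its ratio of RPM, anti-miR over control, was at least 2 either way and its mean was at least 1 RPM. Among all 10365 genes above that floor, 5.0% were called higher, 3.78% lower and 8.78% either way. Of the 43 guidance genes above the floor, 4 were called higher (Sema3a, Sema6c, Sema5a and Efna2) and 4 lower (Epha3, Epha7, Efna1 and Sema5b), 18.6% in all. At a ratio of 1.5 in place of 2, 7 members were higher and 7 lower, beside 11.0% and 8.67% of all genes and 19.6% either way. All 8 had a mean under 10 RPM. By level, 5 of 10 members of 1 to 5 RPM were called beside 44.2% of all genes of that level, 3 of 16 of 5 to 20 RPM beside 9.63%, and 0 of 17 of 20 RPM or more beside 0.478%.

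The median log2 ratio of the 43 members, with 0.1 RPM added to each level, was −0.16, beside 0.03 over all genes above the floor, and its 95% order-statistic interval over members, −0.31 to 0.09, holds both 0 and that value, although genes are not independent replicates. The ratio was under 1 in 26 of the 43, and 46.7% of all genes had a ratio under 1. Among the 27 ligand genes the median was −0.11, with 4 called higher and 2 lower. Over 16 receptor genes it was −0.27, with 0 called higher and 2 lower. Of all genes above the floor, 5.0% were called higher and 3.78% lower. The called receptors, Epha3 and Epha7, had means of 5.04 and 6.71 RPM, so these small counts set no direction for ligands or receptors. An exact binomial test of the reads, Benjamini-Hochberg adjusted at 0.05 over all genes, called 58.1% of all genes, 31.7% higher and 26.4% lower. It called 32 of the 43 members, 11 higher and 21 lower. That test compares the libraries and not the conditions.

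**Figure D2:**
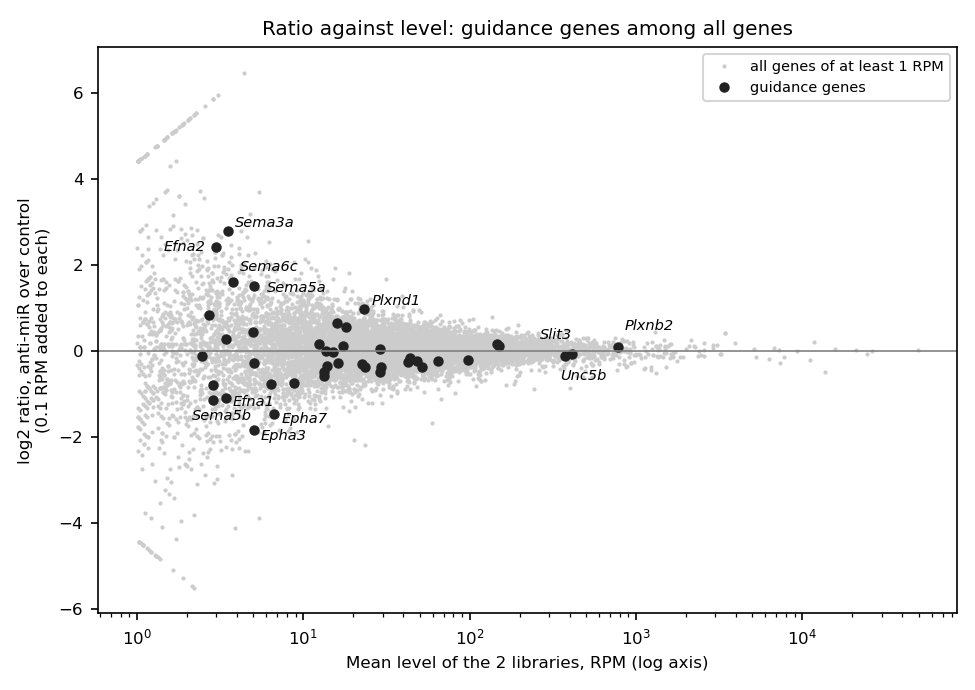
The log2 ratio of anti-miR over control, with 0.1 RPM added to each level, against the mean level of the libraries in RPM on a log axis, for 10365 genes (grey) and the 43 guidance genes above the floor (black). The called members sit at the left, under 10 RPM, where the grey cloud is wide, and Plxnb2, Unc5b and Slit3 lie near 0 at the right.

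Semaphorins were the family with the highest summed per-length level, 167 RPKM and 172 RPKM, with the control given first. All 19 had reads, and 17 passed the floor, of which 3 were called higher and 1 lower. Their median log2 ratio was 0.12, and their summed reads gave a ratio of 1.01 (95% counting interval 0.986 to 1.04). The family's bulk came from Sema4a, a transmembrane class 4 ligand, and the secreted class 3 ligands Sema3c and Sema3f, which together made up 62.5% and 63.2% of its per-length level. Sema4a had 2214 and 2304 reads, 138 and 156 RPM, with a ratio of 1.13 (1.06 to 1.19). Sema3c, known for its part in septation of the cardiac outflow tract, had 144 and 156 RPM, a ratio of 1.08 (1.02 to 1.15). Sema3f, a ligand that signals through neuropilin 2, went the other way, with 105 and 90.3 RPM and a ratio of 0.861 (0.801 to 0.926). None of these differences came near 2-fold.

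Sema3a had the highest ratio of all members above the floor. It encodes the secreted semaphorin that repels axons through neuropilin 1 and that patterns the sympathetic nerves of the heart, and its transcript lies on chromosome 4 (17575112 to 17790100, build rn4). Reads numbered 13 in the control against 92 with the anti-miR virus, that is 0.811 and 6.21 RPM, a ratio of 7.66 (4.26 to 14.9). Its log2 ratio of 2.79 lay above the range of −2.08 to 2.26 that held the central 95% of ratios among the 500 genes closest in level. Of the 43 members, 2 (Sema3a and Plxnd1) lay above their range and 1 (Epha3) below, beside 2.54% and 2.79% of all genes above the floor. The per-length level remained low even where it was higher, at 0.352 and 2.70 RPKM. Its neighbours on the chromosome, all class 3 genes on the same strand, did not share this ratio. Sema3e lies 793 kb to one side and had a ratio of 0.768 (0.671 to 0.878), and Sema3d lies 852 kb to the other, with 0.770 (0.696 to 0.851). The table lists 0 other genes in either gap.

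Transmembrane semaphorins of classes 5 and 6 gave the other called members. Sema6c, of a class that acts on A plexins, had 29 and 85 reads, 1.81 and 5.74 RPM, a ratio of 3.17 (2.06 to 5.02). Sema5a, a class 5 semaphorin with thrombospondin repeats, had 41 and 111 reads, 2.56 and 7.49 RPM, a ratio of 2.93 (2.03 to 4.30). Its paralog Sema5b went the opposite way, with 64 and 26 reads, 3.99 and 1.75 RPM, a ratio of 0.440 (0.267 to 0.703). All 3 lay inside the ranges of genes of like level, which for Sema6c ran from −2.05 to 2.24 on the log2 scale. Sema4d, the ligand of plexin B1 and of CD72 on immune cells, had 12.4 and 19.5 RPM and a ratio of 1.58 (1.31 to 1.90). Its log2 ratio of 0.66 was also inside its range, −0.82 to 0.99.

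A further 2 semaphorins fell below the floor of 1 RPM. Sema3g had 31 reads in the control and none with the anti-miR virus, at least 9.55-fold lower against the limit of 3 reads for that library, while the exact counting interval begins at 7.31-fold. Sema4f had 18 and 2 reads, a ratio of 0.120 (0.0135 to 0.502). Both lay inside the ranges of genes of like level, −4.45 to 4.45 for Sema3g and −4.11 to 4.21 for Sema4f. Over all genes with a read, 3.93% had 0 reads in 1 library and at least 10 in the other, and among the 49 members with reads Sema3g and Plxnb3 did. The remaining semaphorins, Sema3b, Sema3d, Sema3e, Sema4b, Sema4c, Sema4g, Sema6b, Sema6d and Sema7a, had ratios between 0.768 for Sema3e and 1.47 for Sema3b. Sema3b and Sema3f lie 79.5 kb apart on chromosome 8 and had ratios of 1.47 (1.24 to 1.74) and 0.861.

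Only 5 plexin genes were listed, without Plxna1 or Plxnb1. The listed plexins were almost entirely Plxnb2, which held 91.0% and 90.6% of their summed per-length level. This receptor of class 4 semaphorins lies on chromosome 7 (127457133 to 127483162), and it had 12076 and 11868 reads, or 753 and 801 RPM. Its ratio of 1.06 (1.04 to 1.09) had an interval that excludes 1, for a difference of small size. Plxna2, a receptor used by class 3 and class 6 semaphorins, had 52.1 and 44.3 RPM with a ratio of 0.850 (0.767 to 0.943), and Plxna3 had the lowest ratio of the plexins above the floor, with 25.1 and 20.2 RPM and 0.806 (0.691 to 0.938). Plxnb3 had 0 and 10 reads, at least 3.61-fold higher against the limit of 3 reads in the control, with a counting interval that begins at 2.43-fold, inside its range for genes of like level.

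Plxnd1 stood just inside the 2-fold threshold. It encodes the receptor of Sema3e, is known for its role in endothelial cells and outflow tract development, and lies on chromosome 4 (152080259 to 152119942). The control held 251 reads and the anti-miR library 459, that is 15.7 and 31.0 RPM, a ratio of 1.98 (1.69 to 2.32). At 0.98 its log2 ratio was above the range of genes of like level, −0.68 to 0.96, by a narrow margin. Its ligand gene Sema3e was lower, at 33.1 and 25.4 RPM. Of 10 endothelial markers, 9 were measured and summed to 47.5 and 70.3 RPM, a ratio of 1.48 (1.35 to 1.63), but without Flt1, at 24.7 and 44.9 RPM, the ratio was 1.12 (0.965 to 1.29). Of the 7 above the floor, 4 were higher and 3 lower in the anti-miR library. Pecam1 had 0 and 50 reads and Tek 56 and 114, while Plvap had 33 and 0, Vwf 47 and 3 and Tie1 158 and 120. Cdh5 had 0 and 1 read, and Emcn was at 0 in both libraries. The part of these cells in the Plxnd1 difference was not tested.

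Eph receptors were the family with the lowest summed ratio, though not apart from all others. Netrins, at 0.798 (0.613 to 1.04), and Robos, at 0.848 (0.777 to 0.926), had intervals that overlap the Eph interval. Eph reads summed to 112 and 84.6 RPM, a ratio of 0.753 (0.700 to 0.810). Without the most abundant member per length, Epha2, the ratio was 0.773 (0.709 to 0.843). Of 11 genes, 2 (Epha5 and Epha10) had 0 reads in both libraries, Epha1 lay below the floor and 8 passed it, with a median log2 ratio of −0.54. In that family 0 were called higher and 2 lower. The reads of EphA genes gave a ratio of 0.640 (0.573 to 0.715) and those of EphB genes 0.857 (0.778 to 0.945). Each sum leaned on its highest member per length, Epha2 and Ephb3. Without them the ratios were 0.528 (0.433 to 0.640) for EphA and 0.696 (0.602 to 0.804) for EphB, and these intervals overlap. No test over replicates can be made of that gap.

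Epha3 and Epha7 were the called receptors. Epha3, which acts in endocardial cushion and atrial septum development, lies on chromosome 11 (696201 to 1033287). It had 127 and 32 reads, 7.92 and 2.16 RPM, a ratio of 0.273 (0.179 to 0.404). Its log2 ratio of −1.83 lay below the range of genes of like level, −1.69 to 1.95. Epha7, on chromosome 5, had 159 and 52 reads, 9.92 and 3.51 RPM, a ratio of 0.354 (0.254 to 0.487), and its log2 ratio of −1.47 was inside its range, which began at −1.52.

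The more abundant Eph receptors differed less. Epha2, a receptor of epithelia, vessels and many cultured cells, had 540 and 353 reads, 33.7 and 23.8 RPM, a ratio of 0.707 (0.617 to 0.810). Ephb3, which binds B ephrins, had 28.3 and 29.2 RPM and a ratio of 1.03 (0.900 to 1.18), an interval that includes 1. Ephb2, its close relative, had 16.0 and 10.7 RPM and a ratio of 0.669 (0.546 to 0.819). Ephb6, a member without kinase activity, had 11.1 and 6.55 RPM and a ratio of 0.590 (0.456 to 0.759).

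Besides Ephb3, the Eph genes with higher values in the anti-miR library were Epha4, Epha1 and Ephb1. Epha4, which binds ephrins of both classes, had 31 and 52 reads, a ratio of 1.82 (1.14 to 2.93), inside the range of genes of like level. Epha1, below the floor, had 5 and 21 reads, a ratio of 4.54 (1.67 to 15.4), also inside its range. Ephb1 had 50 and 56 reads, with an interval of the ratio from 0.813 to 1.81 that includes 1.

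Among the ephrins above the floor, the 4 of class A spread over a wider range of ratios than the 2 of class B. Of 7 genes, 6 passed the floor, with 1 called higher and 1 lower and a median log2 ratio of −0.56. Efna2, on chromosome 7 (11028432 to 11039064), had 14 and 76 reads, 0.873 and 5.13 RPM, a ratio of 5.87 (3.30 to 11.3). Its log2 ratio of 2.43 was inside the range of genes of like level, which reached 2.48. The other A ephrins had lower values in the anti-miR library. Efna1, a ligand of Epha2 induced by inflammatory cytokines in endothelium, had 75 and 32 reads, 4.68 and 2.16 RPM, a ratio of 0.462 (0.295 to 0.707). Efna4, 69.3 kb away on chromosome 2, had 8.11 and 4.72 RPM and a ratio of 0.583 (0.429 to 0.785). Efna5 had 59 and 31 reads and a ratio of 0.569 (0.356 to 0.893). Efna1, Efna4 and Efna5 lay inside the ranges of genes of like level, which for Efna1 ran from −2.08 to 2.26.

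B ephrins are transmembrane ligands that also signal into the cell that carries them. Efnb2, the ephrin of arterial endothelium and of pericytes, was the most abundant ephrin per length, with 267 and 270 reads, 16.7 and 18.2 RPM. Its ratio of 1.09 (0.920 to 1.30) included 1. Efnb1 was measured at 15.7 and 12.2 RPM and a ratio of 0.780 (0.641 to 0.948). Efnb3 had 0 and 8 reads, at least 2.89-fold higher against the limit of 3 reads in the control, with a counting interval that begins at 1.85-fold. It lay inside its range for genes of like level.

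**Figure D3:**
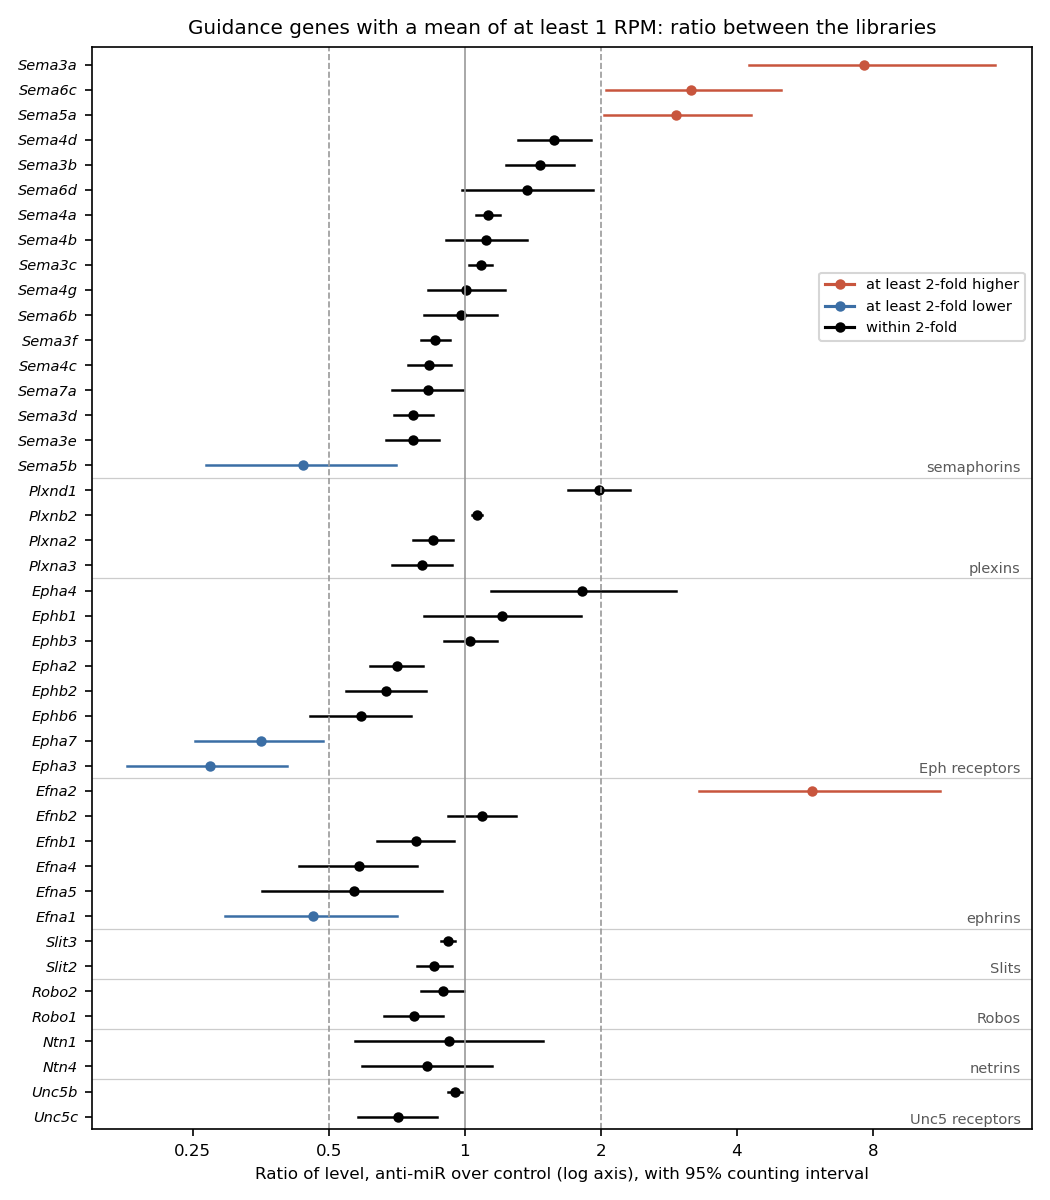
Ratio of level, anti-miR over control, on a log axis for the 43 guidance genes above the floor of 1 RPM, with exact 95% counting intervals and dashed lines at 2-fold. Red marks the 4 genes at least 2-fold higher, blue the 4 at least 2-fold lower, and black the others, with Plxnd1 at 1.98 the nearest to the line.

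Slits and Robos were both slightly lower in the anti-miR library. Slit3, on chromosome 10 (19983166 to 20576689), had 6280 and 5329 reads, 392 and 360 RPM, a ratio of 0.918 (0.885 to 0.952). Slit2 had 69.5 and 59.6 RPM with a ratio of 0.857 (0.784 to 0.937), and Slit1, known mainly from the nervous system, had 0 reads in both. The receptors Robo2 and Robo1, 942 kb apart on chromosome 11, had ratios of 0.893 (0.801 to 0.996) and 0.770 (0.663 to 0.895). Robo2 had 46.1 and 41.2 RPM and Robo1 had 26.6 and 20.5. Per length, the Robos summed to 10.6 and 8.78 RPKM beside 89.9 and 82.0 for the Slits. Robo3 and Robo4, which lie 3.89 kb apart on chromosome 8, had 0 reads in both libraries, and Robo4 is the Robo of endothelial cells. Each of the 4 measured genes with reads was within 2-fold.

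Netrins were scarce and their receptor Unc5b abundant. Unc5b, on chromosome 20 (28095243 to 28162204), encodes a netrin receptor of the dependence receptor type that is also found on vessels and macrophages. It had 6776 and 5956 reads, 423 and 402 RPM, a ratio of 0.951 (0.918 to 0.985), and made up 98.9% and 99.2% of the per-length level of its family. Unc5c had 15.5 and 11.0 RPM with a ratio of 0.711 (0.580 to 0.870), and Unc5a and Unc5d had 0 reads in both. Of the ligands, Ntn4, a netrin of basement membranes, had 89 and 68 reads and Ntn1, the classical axon attractant, 41 and 35. Both intervals included 1, at 0.594 to 1.15 for Ntn4 and 0.571 to 1.49 for Ntn1. Ntn3 had 11 and 1 reads, a ratio of 0.0984 (0.00229 to 0.677), inside its range for genes of like level, and Ntn5 had 0 in both. The netrins together reached 7.03 and 5.75 RPKM, beside 151 and 144 for the Unc5 receptors.

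**Figure D4:**
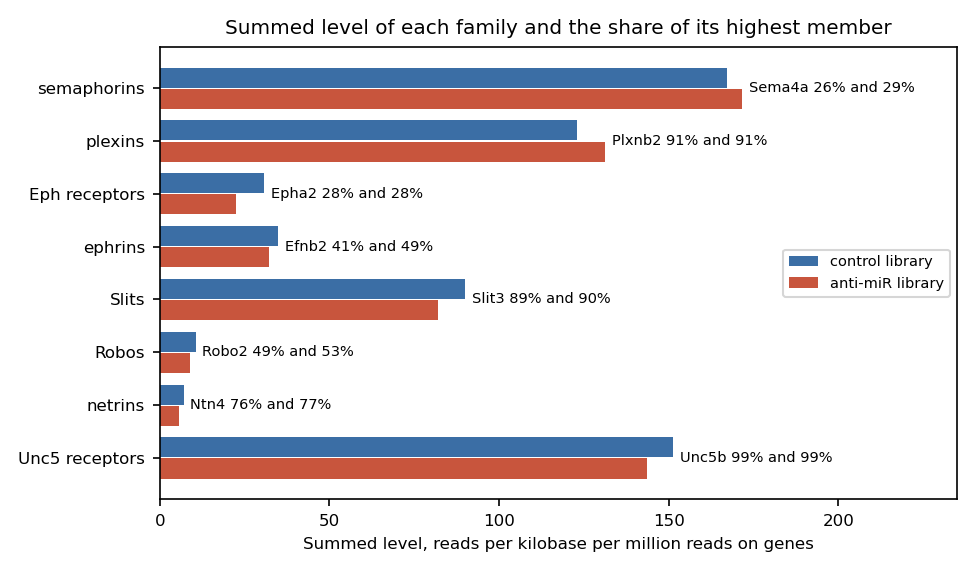
Summed per-length level of each family, in RPKM, in the control (blue) and the anti-miR library (red), with the highest member and its share in each library. The Unc5, plexin and Slit sums rest on Unc5b, Plxnb2 and Slit3, and the Eph receptor bar drops from 30.8 to 22.4.

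Genes that work with these families, taken from lists of co-receptors, other receptors and sheddases and of intracellular effectors, were read in the same way. Of 70 measured, 65 passed the floor, with 2 called higher and 2 lower, 6.15% in all beside 8.78% of all genes, and their median log2 ratio was 0.01, or −0.02 with TMM scaling. The neuropilins, co-receptors of class 3 semaphorins, were lower by little: for Nrp2, 263 and 231 RPM gave a ratio of 0.876 (0.837 to 0.917), and Nrp1 had 47.2 and 45.2, with an interval of 0.861 to 1.06 that includes 1. The netrin receptor gene Dcc had 0 reads in both libraries. Trem2 and Tyrobp, which form a receptor complex of myeloid cells that can pair with plexin A1, were within 2-fold, with 361 and 356 RPM for Trem2 and 449 and 405 RPM for Tyrobp.

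Of the 11 co-receptor and receptor partners above the floor, 0 were called higher and 2 lower. Met, a kinase that associates with B plexins, had 100 and 31 reads, a ratio of 0.335 (0.217 to 0.506). L1cam, a cell adhesion molecule in the Sema3a receptor complex, had 37 and 14 reads and a ratio of 0.409 (0.204 to 0.775). Met and L1cam lay inside the ranges of genes of like level. Highest on this list were Erbb2, a kinase partner of B plexins, at 1.42 (1.21 to 1.66), and the integrin gene Itgb1, a receptor chain for Sema7a, at 1.06 (1.04 to 1.08).

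Of the 54 intracellular partners above the floor, 2 were called higher and 0 lower. Ngef, encoding the exchange factor ephexin that Epha4 uses, had 0 and 34 reads, at least 12.3-fold higher against the limit of 3 reads in the control, and its counting interval began at a ratio of 9.44. Its log2 ratio of 4.58 lay inside the range of genes of like level, −4.45 to 4.77. Rnd2, a small GTPase that binds plexins, had 75 and 149 reads and a ratio of 2.15 (1.62 to 2.88), also inside its range. The lowest ratios were those of Dpysl5, a collapsin response mediator, at 0.575 (0.299 to 1.07), and Cdk5, a kinase of Sema3a signalling, at 0.655 (0.578 to 0.743). The interval of Dpysl5 includes 1.

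Markers of neurons and glia, in which Sema3a and several ephrins are also expressed, were low in both libraries. Of 9 considered, 8 were measured and summed to 35.7 and 42.3 RPM, a ratio of 1.19 (1.06 to 1.33). Tubb3 had 189 and 252 reads, Map2 143 and 147 and Sox10 11 and 24, while S100b had 229 and 195 and Snap25 was at 0 in both. Their part in the differences of Sema3a and Efna2 was not tested. Epicardial markers summed to 143 and 147 RPM, but 4 of the 5 were lower, and without Aldh1a2 the sum was 75.6 and 60.9 RPM, a ratio of 0.806 (0.739 to 0.879). The sum of smooth muscle or pericyte markers was 2782 and 2691 RPM.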

How the data were processed

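For each gene the authors deposited a read signal that had been scaled. It comes from HOMER, per the file headers, which counted exon reads on RefSeq transcripts of build rn4, taking the opposite strand and 1 transcript per gene. CASAVA 1.8.2 and STAR 2.2.0c are named per the submitters' processing notes, without a role; no source used here says how reads with several matches were handled. The deposited transcript length, another value of the table, was used for per-length levels. Low values were whole multiples of 0.962 (control) and 1.04 (anti-miR): 100% of values up to 400 reads were whole within 0.005 deposited units, so reads were recovered.

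Ratios carry exact Clopper-Pearson 95% intervals, and levels exact Poisson ones. They hold counting error and nothing else, so differences between cultures or library preparations are left out. Without molecular identifiers reads need not be separate molecules, so even the counting error may be larger than they show. As each group had 1 library, no p-value across samples was possible. The exact binomial test on recovered reads called 6018 of 10365 genes at an adjusted p of 0.05. Scripts used Python 3.11.15, scipy 1.17.1, edgeR 4.0.16 and DESeq2 1.42.0 (the last pair for scaling factors only), and were checked on simulated data.

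The members and gene lists were chosen with earlier results of these data known. Named genes were, in each family, the 3 highest levels, the highest and lowest ratio, ratios of at least 2, ratios of at least 1.5 whose interval excluded 1, and genes with 0 reads in 1 library and at least 10 in the other. Partner genes named were the 2 highest and 2 lowest ratios of each list and the neuropilins. Other genes were named for their position, their pairing with a member or as markers. One listed neuron or glia marker is not reported here and was left out of its sum.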

Additional observations from a re-analysis of the deposited data

How the results depend on the processing

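The count of 8 members called at 2-fold was 14 without the floor, where 17.5% of all genes were called, and 0 of 27 with a floor of 10 RPM, where 1.54% were. It was 14 at a ratio of 1.5, beside 19.6% of all genes, and 32 by the exact binomial test. With a pseudocount of 1 RPM it was 6, beside 5.66% of all genes, and Efna1 and Sema5b, at ratios of 0.556 and 0.552, were no longer called. TMM and DESeq2 scaling left it at 8. The members' median log2 ratio lay between −0.19 and −0.16 under the floors, pseudocounts and scalings tried. The 4 called partner genes became 7 of 69 without the floor, 0 of 55 with 10 RPM and 2 of 65 with a pseudocount of 1, beside the same shares of all genes. Of the 10 highest members per length, 8 were also the highest without the length. No paired analysis was possible because each group had 1 library. Members under 5 RPM rest on few reads, and a difference there was read against genes of like level.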
